A study of Mus musculus with 34 samples.

Results

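The replication-dependent histone genes make the bulk histones that package newly copied DNA. Members were taken by name: every gene of a RefSeq table (GRCm38.p6) whose symbol or older symbol begins with Hist1h, Hist2h, Hist3h or Hist4h, which gave 70 of 21634 genes on the autosomes and X. Of these, 67 are protein-coding and 3 are pseudogenes (H2ac14, H2bu1-ps and H2af-ps2). There are 6 genes for the linker histone H1 and, for the core histones, 20 for H2A, 19 for H2B, 12 for H3 and 13 for H4. Current symbols are used below; H4bc24 is the table's symbol for an H2B gene formerly called Hist1h2br.

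The study applied chromatin integration labelling to C2C12 cells, an immortal mouse myoblast line: antibodies on fixed cells bring a DNA probe to their target, a transposase inserts it into the nearby genome, and the flanking DNA is copied into RNA and sequenced. In dual staining both antibodies of a pair were used in the same cells, and their reads were told apart afterwards. H3K4me3 (trimethylated lysine 4 of histone H3, found at active gene starts) was paired with CTCF, a zinc-finger protein that holds the bases of chromatin loops, in 1000 and in 10000 cells. H3K27ac (acetylated lysine 27, found at active enhancers and gene starts) was paired with Pol2S2P, the serine-2-phosphorylated RNA polymerase II of elongation, in 100 and in 1000 cells. CTCF was also stained alone in 10000 cells and Pol2S2P alone in 1000 cells. Dual groups hold 3 libraries each and single groups 2, and all groups share the same untreated line with no genetic change named in the labels. Nothing in the labels ties replicates to separate cultures, so the spread behind each p-value may be a technical one.

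Replication-dependent histone genes are short, have no introns and are transcribed mainly in S phase. Their messages end in a stem-loop instead of a poly(A) tail, which is bound by SLBP, and NPAT, activated by cyclin E and CDK2, drives their transcription in nuclear histone locus bodies. The genes lie in clusters, the largest on mouse chromosome 13. A few copies, among them H1f6, H2ac1 and H2bc1, are known as testis histones, made in male germ cells. Replacement histones such as H2ax lie elsewhere and several of them are made throughout the cell cycle.

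Of the 70 members, 56 lie on chromosome 13. A first group of 19 spans chr13:21713916-21838915 (group A below), a group of 5 lies at chr13:22033916-22044915 (group B) and the largest, of 29, spans chr13:23529906-23765905 (group C). The testis pair H2bc1 and H2ac1 and the pseudogene H2af-ps2 stand apart from them. Another 10 members lie on chromosome 3, 3 on chromosome 11 (H2bu2, H2bu1-ps and H2aw) and 1, H4f16, on chromosome 6. Genes are packed so closely that the window of a member, the 1 kb bins over its span with 1 kb either side, often reaches into its neighbour: 59 members share bins with another member, the 70 windows form 35 separate sets, and the median window is 4 bins against 20 for all genes. H2bu1-ps and H2aw also share bins with Trim17, a gene that is no histone. Long listed spans give 5 members (H2bc6, H2bc22, H2bc4, H2bc23 and H4bc24) windows of more than 6 bins, so that bins far from the start enter their density.

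The promoters below show the letters that set the families apart and the copies whose near-identity matters to the counts. Each is the 200 bases before the RefSeq start of transcription in GRCm38.p6, written 5′ to 3′ in the direction of the gene. Capitals mark TATAAA (the TATA box), CCAAT (the CCAAT box), ATTTGCAT (the octamer that OCT1, encoded by Pou2f1, binds) and GGTCCG (letters of the H4 element known as site II), each searched on both strands, so that ATTGG and TTTATA are the reverse complements of CCAAT and TATAAA. H4f16 (chr6:136804432-136804631, minus strand) had the highest H3K4me3 density of the H4 genes. H4c17 (chr13:21811546-21811745, plus strand) and H4c18 (chr13:21832198-21832397, minus strand) face each other as near-copies at the low end. H1f5 (chr13:21780626-21780825, minus strand) led the H1 genes in H3K4me3, and H3c10 (chr13:21717428-21717627, plus strand) and H2bc12 (chr13:22035621-22035820, plus strand) are members with far more Pol2S2P in single than in dual staining. H2bc1 (chr13:23934157-23934356, minus strand) is a testis gene with almost no counts.
H4f16: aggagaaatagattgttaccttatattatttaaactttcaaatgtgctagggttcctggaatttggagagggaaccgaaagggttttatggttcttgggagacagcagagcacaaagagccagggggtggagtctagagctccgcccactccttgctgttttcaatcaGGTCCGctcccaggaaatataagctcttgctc
H4c17: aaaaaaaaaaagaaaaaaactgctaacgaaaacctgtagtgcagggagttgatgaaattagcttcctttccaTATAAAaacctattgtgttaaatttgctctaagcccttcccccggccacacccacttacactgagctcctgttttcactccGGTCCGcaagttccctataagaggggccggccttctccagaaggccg
H4c18: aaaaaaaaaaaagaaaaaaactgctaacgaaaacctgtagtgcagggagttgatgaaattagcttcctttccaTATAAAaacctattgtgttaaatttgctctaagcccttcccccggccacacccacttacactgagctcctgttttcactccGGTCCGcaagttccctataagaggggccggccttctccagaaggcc
H1f5: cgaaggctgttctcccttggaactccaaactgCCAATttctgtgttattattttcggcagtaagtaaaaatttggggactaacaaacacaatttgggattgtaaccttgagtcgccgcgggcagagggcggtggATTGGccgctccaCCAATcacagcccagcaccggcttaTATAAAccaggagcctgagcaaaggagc
H3c10: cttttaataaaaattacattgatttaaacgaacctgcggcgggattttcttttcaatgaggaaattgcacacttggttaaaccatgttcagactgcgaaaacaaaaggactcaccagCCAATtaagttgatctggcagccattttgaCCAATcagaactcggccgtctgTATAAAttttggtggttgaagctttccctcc
H2bc12: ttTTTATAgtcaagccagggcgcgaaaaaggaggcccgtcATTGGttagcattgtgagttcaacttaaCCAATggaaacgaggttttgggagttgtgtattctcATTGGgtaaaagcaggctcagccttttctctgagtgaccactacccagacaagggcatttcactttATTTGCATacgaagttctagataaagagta
H2bc1: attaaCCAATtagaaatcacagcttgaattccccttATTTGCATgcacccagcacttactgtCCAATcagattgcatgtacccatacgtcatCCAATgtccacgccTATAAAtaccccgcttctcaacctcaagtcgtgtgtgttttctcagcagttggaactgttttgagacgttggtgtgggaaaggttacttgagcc

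The H4 promoters carried GGTCCG close to the start, beginning 32 bases before it in H4f16, 47 in H4c17 and 46 in H4c18. TATAAA began 28 bases before the start of H1f5 and 31 before that of H3c10, and the octamer 30 bases before that of H2bc12, whereas H2bc1 held both TATAAA and the octamer farther out, at 94 and 164 bases. Over promoters of 300 bases (250 before to 50 after the start), which the RefSeq table gave for 62 members, CCAAT was present in all 6 H1, 18 H2A, 16 H2B and 10 H3 promoters but in 3 of 12 for H4, in all 53 of 62 (85.48%) against 39.32% of 17274 promoters of all genes. GGTCCG was present in 11 of 12 H4 promoters and in 2 others, 20.97% of members against 10.69% of all promoters. The octamer was found in 7 of 18 H2A and 7 of 16 H2B promoters and in no H1, H3 or H4 promoter, 22.58% against 1.69%. TATAAA was found in 35 promoters, 56.45% against 13.4%. None of these motifs contains another, and a match describes the sequence only.

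The printed windows of H4c17 and H4c18 are the same letters shifted by 1 base, and over 300 bases their promoters are 99.0% identical. Those of H2bc23 and H4bc24 are 100.0% identical. Reads from such copies cannot be placed with certainty, and whether multiply mapped reads were kept is not stated in the labels. Counts at these 4 members are therefore uncertain. H2ac23 and H2ac24 lie between them and share all their bins with them, so their counts are uncertain too.

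The 28 libraries held 719766 to 6653298 counts, lowest for H3K4me3 in 1000 cells. Levels are given as density: a library's counts per bin of the window over its mean per bin of the genome, so that 1 is the genome mean. As a check of the line, the myoblast gene Myf5 had an H3K4me3 density of 32.1 in 10000 cells and Vim 50.4, against 5.58 for Des, 4.16 for Cdh15 and 1.13, near the genome mean, for the myoblast regulator Myod1. Of 12 markers of blood, liver, neurons and heart, 11 ran from 0.319 (Snap25) to 3.77 (Tubb3), and Apoa2 stood at 10.2; their part in the results was not tested.

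All 4 targets stood above the genome mean over the 234 bins of the members, which are 0.00889% of the bins. H3K4me3 had a density of 6.51 ± 0.195 (SD, n = 3; 6.31 to 6.70) in 10000 cells and 4.85 ± 0.603 (n = 3; 4.38 to 5.53) in 1000. H3K27ac stood at 4.96 ± 0.165 in 1000 and 4.18 ± 0.442 in 100 cells (n = 3 each). CTCF stood at 2.56 ± 0.0585 in 10000 cells, 2.47 ± 0.132 in 1000 (n = 3 each) and 2.93 ± 0.0422 when stained alone (n = 2). Pol2S2P differed most between stainings: 3.80 ± 0.269 in 1000 cells with dual staining (n = 3; 3.51 to 4.04) against 6.72 ± 0.478 with single staining (n = 2; 6.38 to 7.06), with no overlap, and 2.92 ± 0.103 in 100 cells. In these bulk libraries, fewer cells carrying a mark and less of it per cell cannot be told apart.

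**Figure D1:**
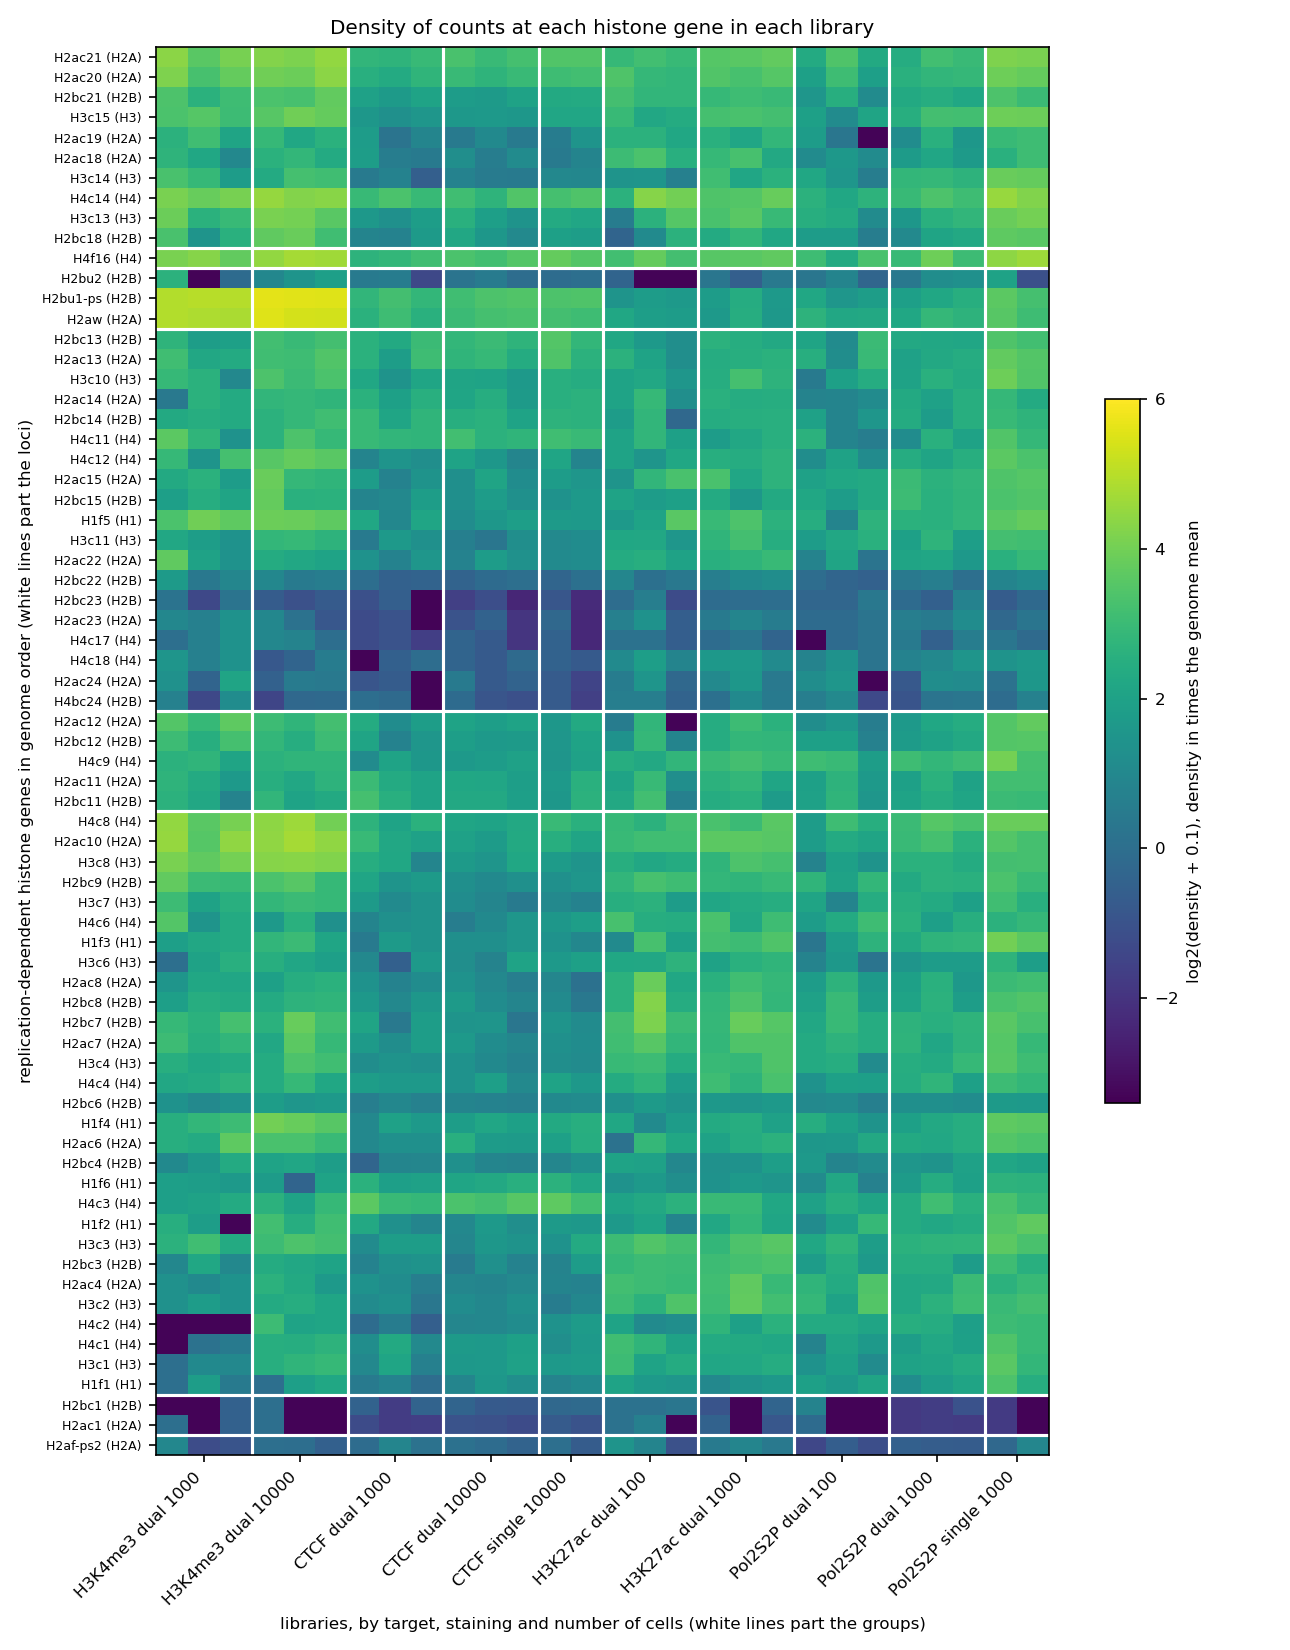
Density of counts at each of the 70 histone genes (rows, in genome order, family in brackets) in each of the 28 libraries (columns), as log2(density + 0.1) with density in times the genome mean. The testis pair H2bc1 and H2ac1 and the near-copies around H4c17 and H4c18 form dark rows in all groups, and the brightest cells are H2bu1-ps and H2aw in H3K4me3, which share bins with Trim17.

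Member by member, H3K4me3 in 10000 cells ran from 0.31 at H2bc1 to 47.5 at H2bu1-ps, with a median of 6.84 against 1.47 over all genes. The medians of the other targets were 5.75 for H3K27ac in 1000 cells (all genes 1.16), 4.68 for Pol2S2P in 1000 cells with dual staining (1.41) and 8.97 with single staining (1.57), and 2.66 for CTCF in 10000 cells (1.44). Windows of members are shorter than those of most genes, and a short window around a start holds a larger share of start than a long one does. These are therefore levels, and the contrast with all genes was not tested.

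The families differed little in their middle values, and their order changed with the number of cells. Median H3K4me3 density in 10000 cells was 7.80 for H3, 6.97 for H1, 6.43 for H2A, 5.94 for H2B and 5.82 for H4. In 1000 cells it was 5.64 for H4, 5.50 for H3, 5.45 for H2A, 4.38 for H2B and 3.93 for H1, with H4 first instead of last. For H3K27ac in 1000 cells H3 was highest (7.70), followed by H4 (6.64), H2A (6.14), H1 (5.04) and H2B (4.81). Pol2S2P with single staining was highest at H1 (12.1), then H3 (9.81), H4 (8.94), H2A (8.58) and H2B (7.75). Within each family the members spread over a far wider range than the distance between these medians.

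**Figure D2:**
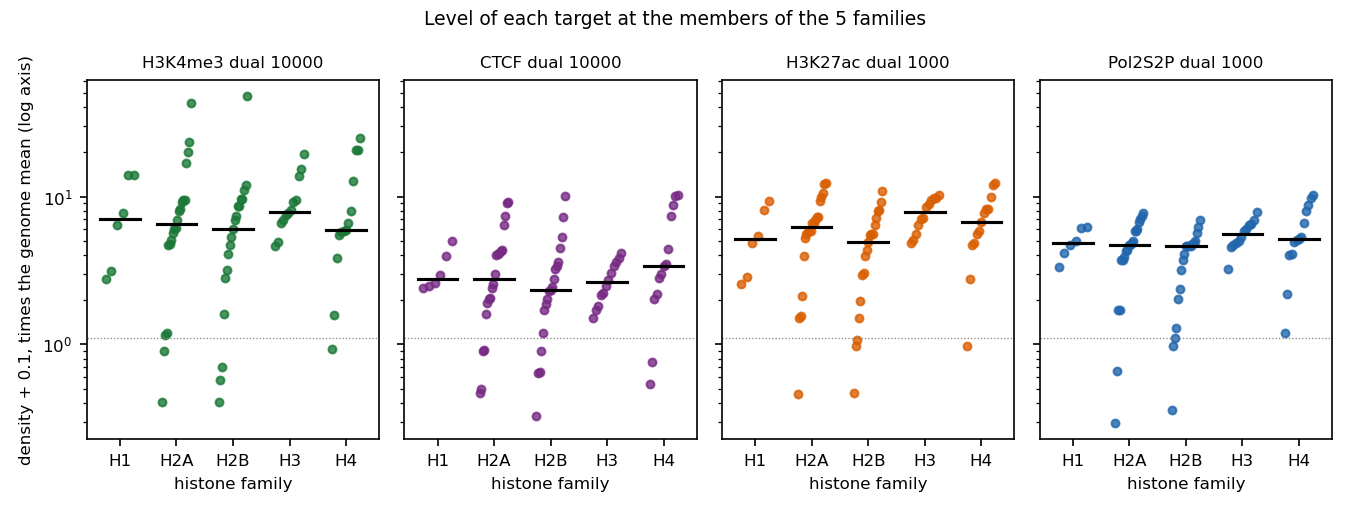
Density + 0.1 (log axis, times the genome mean; mean of 3 libraries) of each member, by histone family, for H3K4me3 and CTCF in 10000 cells and H3K27ac and Pol2S2P in 1000 cells with dual staining. Each point is 1 member, black lines are family medians and the dotted line is the genome mean; the 5 medians of a target lie close together while members of 1 family spread widely.

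Medians by locus spanned a wider range than medians by family. Median H3K4me3 density in 10000 cells was 12.8 for the 10 members on chromosome 3, 6.88 for group A, 6.51 for group B, 5.94 for group C and 0.31 for the testis pair. In 1000 cells it was 8.80 on chromosome 3, 5.64 in group B, 4.44 in group C and 4.38 in group A. Pol2S2P with single staining had 14.2 on chromosome 3, 11.2 in group B, 8.75 in group C and 6.97 in group A. The place of group A thus changed with the number of cells, and over all its member bins (given below) group A had less H3K4me3 than group C in 10000 cells too. These orders rest on 2 to 29 members each, many of which share bins, and were not tested.

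At the upper end, the H4 gene H4f16, a lone member on chromosome 6, had H3K4me3 densities of 22.3, 26.7 and 25.4 in 10000 cells and 17.1, 19.3 and 13.3 in 1000. Its Pol2S2P densities were 20.9 and 24.8 with single staining and 7.46, 15.0 and 8.17 with dual staining, the highest of any member in either staining, and its H3K27ac densities in 1000 cells were 11.7, 11.9 and 12.98. H4c14 on chromosome 3, which also encodes H4, had H3K4me3 densities of 22.9, 19.1 and 19.97 in 10000 cells. Both genes lay far above the median of the H4 family given above, and their ranges overlapped each other.

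Among the H2A genes, the neighbours H2ac21 and H2ac20 on chromosome 3 had means of 19.8 ± 2.37 and 16.8 ± 3.15 for H3K4me3 in 10000 cells (SD, n = 3), and H2ac10 in group C 23.3 ± 2.95. For H3, H3c8 was highest, with 19.4 ± 0.703 (SD, n = 3), and H3c6 lowest, with 5.57, 4.33 and 3.63. For H1, H1f5 was highest, with 14.9, 14.3 and 12.7, and the testis gene H1f6 lowest, with 3.25, 0.667 and 4.09. The libraries of these high and low members did not overlap within either family. Since the members were picked as highest and lowest by these same values, that is a description and no test. The other members on chromosome 3 had H3K4me3 means of 5.98 (H2ac19), 6.01 (H2ac18), 7.59 (H3c14), 10.9 (H2bc21), 11.9 (H2bc18), 13.6 (H3c15) and 15.3 (H3c13), which spans low and high members of 3 families. On chromosome 11, H2bu2 stood at 2.72 ± 0.888 (n = 3), far below H2bu1-ps (47.5 ± 0.841) and H2aw (43.1 ± 2.51), whose bins also cover Trim17.

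At the lower end lay the testis pair. H2bc1 held 2, 0 and 0 H3K4me3 counts in the 3 libraries of 10000 cells and 1 and 0 Pol2S2P counts with single staining, and H2ac1, in nearly the same bins, held the same numbers. Their densities, at most 1.05 for any group mean, were at or below the level of the genome in nearly every group. H1f6, the testis H1, differed from them: its Pol2S2P densities were 6.34 and 6.21 with single staining, and its CTCF densities in 10000 cells were 4.25, 4.77 and 5.66. It shares bins with H4c3, so that part of its counts belongs to both windows.

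The near-copies in group A were low too. H4c17 had H3K4me3 densities of 1.86, 1.67 and 0.908 in 10000 cells and Pol2S2P densities of 1.12 and 0.809 with single staining. Its partner H4c18 had 0.464, 0.667 and 1.36 for H3K4me3, yet 2.93, 3.05 and 2.04 for H3K27ac in 1000 cells and 2.61 and 2.97 for Pol2S2P with single staining. H2bc23 and H4bc24, the pair with identical promoters, had H3K4me3 means of 0.477 ± 0.0832 and 0.602 ± 0.292 (SD, n = 3). The 6 members from H2bc23 to H4bc24, whose counts are all uncertain as said above, had H3K4me3 means at or below 1.48 in 10000 cells. These copies were singled out after their values were seen.

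Across the 35 window sets, levels of some targets ran together. Spearman's rho between H3K27ac and Pol2S2P in 1000 cells was 0.859 with dual and 0.646 with single staining of Pol2S2P. Between H3K4me3 in 10000 cells and Pol2S2P in 1000 it was 0.613 with dual and 0.777 with single staining. For CTCF in 10000 cells it was 0.69 with H3K4me3 in 10000 cells and 0.374 with H3K27ac in 1000. The points share windows, base composition and copy number, and targets of the same dual staining also share their cells. These values therefore describe the members and carry no p.

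H3K4me3 against CTCF in the same 10000 cells asks which of the paired targets has the higher density at a histone gene. Each library is scaled to its own total, so such a fold compares shares of counts and not amounts of the 2 targets. Most tested members had a higher density of H3K4me3, most clearly H2A, H3 and H4 genes in group C and H1f5 in group A. At H2ac10 the H3K4me3 densities were 21.8, 26.7 and 21.3 and the CTCF densities 3.85, 3.26 and 4.85, a log2 fold change of 2.58 ± 0.19 (SE; edgeR quasi-likelihood test, adjusted p = 5.46e-35). At H1f5 the values were 14.9, 14.3 and 12.7 against 2.13, 2.89 and 3.56, a log2 fold change of 2.30 ± 0.24. At both genes all H3K4me3 libraries lay several times above all CTCF libraries.

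Of the 59 members with enough counts to be tested, 50 were higher in H3K4me3 and 2 were lower. Over all 16954 genes tested, 78.7% passed the threshold (adjusted p under 0.05), 50.8% as higher and 28% as lower. The 50 members come from 27 separate window sets, and their log2 fold changes ran from 0.65 to 2.58; the median over the 59 was 1.33 against 0.37 over all genes tested. Scaling by TMM lowered the median of all genes to -0.07, and members then numbered 40 higher and 2 lower, against 39.5% higher and 41.7% lower over all genes. By family, 12 of 12 tested H3 genes were higher, 14 of 16 for H2A, 12 of 15 for H2B, 8 of 10 for H4 and 4 of 6 for H1.

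Other leading members were H3c8, with a log2 fold change of 2.50 ± 0.21, H3c14 with 2.43 ± 0.38, H4c8 with 2.26 ± 0.23, H3c15 with 2.22 ± 0.24 and H2bc7 with 2.14 ± 0.28 (SE; adjusted p from 1.69e-28 to 5.19e-10, edgeR). H3c14 and H3c15 on chromosome 3 encode H3 and have promoters 89.67% identical. H4c8 lies next to a transfer RNA gene, n-TMcat9, within 1 kb of its window, and the part of that gene in its counts was not tested. H2bu1-ps and H2aw, over Trim17, had 2.26 ± 0.15 and 2.25 ± 0.14. The H4 genes with the most H3K4me3, H4f16 and H4c14, also carried much CTCF (10.1, 8.70 and 11.2 at H4f16; 8.68, 6.53 and 10.8 at H4c14), and their log2 fold changes were 1.33 ± 0.18 and 1.27 ± 0.20.

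Both members that were lower in H3K4me3 share bins. At H4c3, an H4 gene of group C, H3K4me3 densities were 6.19, 4.0 and 7.26 and CTCF densities 9.93, 9.04 and 11.6, the highest CTCF mean of any member (log2 fold change -0.84 ± 0.28, adjusted p = 0.00363, edgeR). At H1f6 the H3K4me3 densities of 3.25, 0.667 and 4.09 lay below the CTCF densities of 4.25, 4.77 and 5.66 (-0.98 ± 0.36, adjusted p = 0.00921). Without the second H3K4me3 library neither gene was called, and the value at H1f6 became -0.40 (adjusted p = 0.362).

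In 1000 cells, where H3K4me3 libraries were shallowest, 35 members could be tested, and 25 were higher in H3K4me3 and 1 lower, in a setting where 72.2% of 15503 genes passed, 48.4% as higher and 23.8% as lower. H2aw led, with a log2 fold change of 2.08 ± 0.23, followed by H3c8 (2.02 ± 0.32), H1f5 (1.93 ± 0.34) and H3c15 (1.88 ± 0.38). At H3c8 the H3K4me3 densities were 17.4, 12.99 and 16.2 and the CTCF densities 5.39, 4.44 and 1.72, with no overlap. H2bc22, whose window covers 17 bins, had H3K4me3 densities of 3.23, 1.18 and 1.76 against 0.896, 0.617 and 0.659 (1.41 ± 0.39, adjusted p = 0.000673, edgeR; 0.0593 by DESeq2). With TMM 19 members were higher and 3 lower, against 36.2% and 37.3% of all genes, and DESeq2 called 10 members, against 64.4%. H4c3 was again lower (-1.04 ± 0.43, adjusted p = 0.022), but lost its call without the first (adjusted p = 0.0531) or second (0.0886) H3K4me3 library or the first CTCF library (0.117).

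An interaction term asked whether the log2 fold change of H3K4me3 over CTCF differed between 10000 and 1000 cells. By edgeR 0 of 57 members passed (0.0301% of all genes), and 6 had an unadjusted p under 0.05; by DESeq2 0 passed (0.00603% of all genes). The median difference over these 57 was 0.47 on the log2 scale, higher in 10000 cells, against 0.02 over all genes. Shares of all genes at an unadjusted p under 0.05 are not given, here or below. Counts of members at that level therefore cannot be read against a background.

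H3K27ac against Pol2S2P in the same 1000 cells compares the densities of acetylated chromatin and elongating polymerase, again as shares of counts. Of the tested members 23 of 61 were called higher in H3K27ac, against 10.4% of all genes tested. They were led by H2A, H2B and H3 genes on chromosome 3 and in group C. At H2bc3, an H2B gene of group C, H3K27ac densities were 8.17, 9.15 and 9.96 and Pol2S2P densities 5.41, 5.41 and 3.36 (log2 fold change 0.94 ± 0.24, adjusted p = 0.000523, edgeR). At H2ac18 on chromosome 3 they were 7.33, 9.59 and 4.75 against 3.25, 4.37 and 3.16 (1.01 ± 0.28, adjusted p = 0.00101). Neither gene's groups overlapped. H4f16 (0.27 ± 0.22, adjusted p = 0.311) and H4c14 (0.45 ± 0.23, adjusted p = 0.0943) did not pass the test.

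Of 61 members tested, 23 were higher in H3K27ac and 0 lower, from 13 window sets, with log2 fold changes from 0.37 to 1.01. Over 16722 genes tested 46.8% passed, 10.4% as higher and 36.4% as lower, and the median was 0.37 over the members tested and -0.29 over all genes. TMM moved the median of all genes to 0.00 and called 33 members higher and 0 lower, against 20.5% and 18.2% of all genes. DESeq2 called 25 higher and 0 lower, against 15.4% and 12.5%. By edgeR 30 members had an unadjusted p under 0.05 in either direction. By family 8 of 16 tested H2A, 7 of 15 H2B and 6 of 12 H3 genes were higher, but 1 of 6 H1 and 1 of 12 H4 genes; the difference between families was not tested. With same-numbered libraries taken as pairs, 24 members were higher and 2 lower, against 11% and 38.3% of all genes.

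H3c13 on chromosome 3, with H3K27ac densities of 9.78, 11.9 and 7.55 against 2.89, 5.83 and 6.85 for Pol2S2P, had a log2 fold change of 0.93 ± 0.27 (adjusted p = 0.00239, edgeR). H2bc8 had 0.83 ± 0.29, with 6.99, 10.2 and 6.94 against 4.09, 6.11 and 3.43, and H3c6 0.80 ± 0.31, with 3.98, 5.89 and 6.56 against 2.71, 3.33 and 3.36. At each of these genes all H3K27ac libraries lay above all Pol2S2P libraries. Without the first Pol2S2P library the adjusted p was 0.0726 for H3c13, 0.0524 for H2bc8 and 0.0854 for H3c6, and 12 members were called higher and 1 lower. The call at H2bc8 was also lost without the second H3K27ac (0.134) or the third Pol2S2P library (0.0821), and that at H3c6 without the second (0.0734) or the third H3K27ac library (0.129). Members higher numbered 13 without the second and 13 without the third H3K27ac library, and 15 without the third Pol2S2P library.

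In 100 cells 21 members could be tested, and 4 were higher in H3K27ac: H2ac18, H2bc21, H2bc7 and H2bc6. The background here was 34.8% of 13367 genes, 8.65% as higher and 26.1% as lower. At H2ac18 the H3K27ac densities were 8.08, 10.1 and 5.68 and the Pol2S2P densities 2.08, 2.92 and 2.096, a log2 fold change of 1.72 ± 0.49 (adjusted p = 0.00285, edgeR). Its libraries did not overlap at either number of cells. The 3 called members besides H2ac18 had log2 fold changes of 1.08 ± 0.38 (H2bc21), 1.00 ± 0.37 (H2bc7) and 0.56 ± 0.23 (H2bc6). All 3 lost their calls without the first or the third Pol2S2P library. H2bc21 also lost its call without the first H3K27ac library, H2bc7 without the second and H2bc6 without the second or the third. By edgeR 0 members were lower, with 7 at an unadjusted p under 0.05 in either direction. TMM called 9 higher and 0 lower, against 15.6% and 11.8% of all genes, and DESeq2 4 and 0, against 11.9% and 7.45%. The interaction with the number of cells passed for 0 of 61 members by edgeR and by DESeq2 (0.0% of all genes in each), with 0 at an unadjusted p under 0.05.

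**Figure D3:**
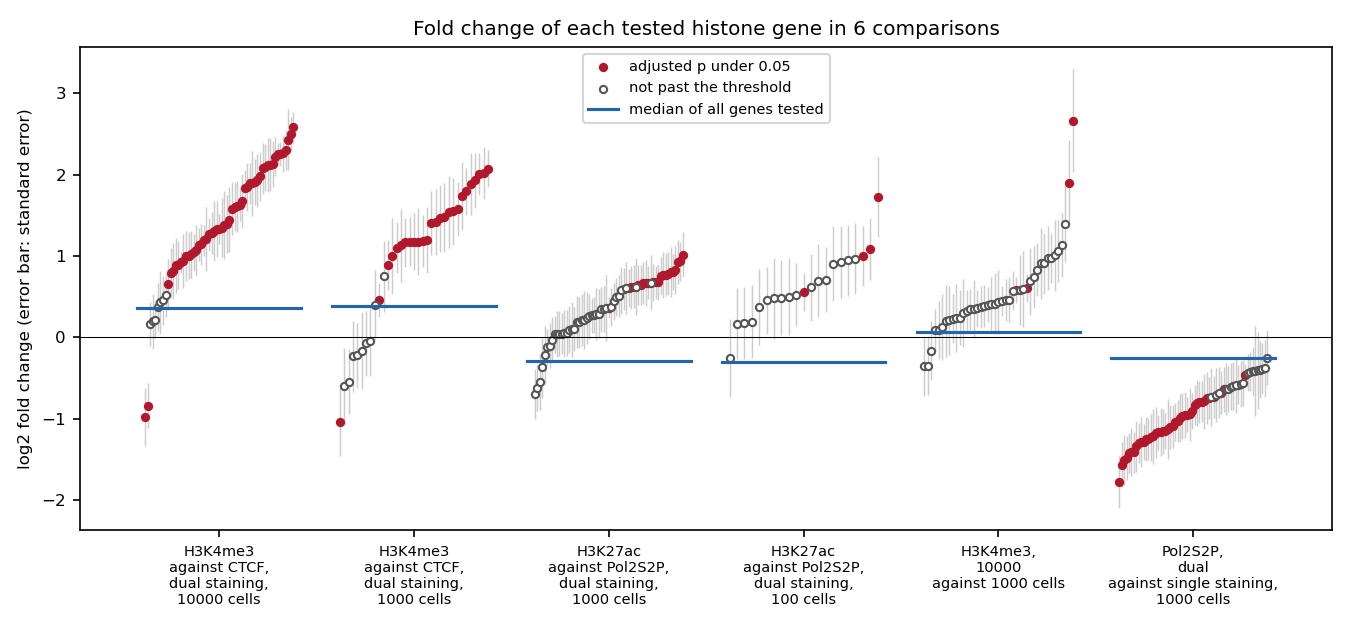
Log2 fold change (vertical axis, error bars SE from edgeR) of every tested histone gene in 6 comparisons, sorted within each; filled points have an adjusted p under 0.05, open points do not, and the blue line is the median of all genes tested. Most members lie above that line for H3K4me3 against CTCF and for H3K27ac against Pol2S2P, and below it for Pol2S2P in dual against single staining.

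Pol2S2P in 1000 cells was stained both together with H3K27ac and alone. The dual and single libraries share only a replicate number, so the staining cannot be told apart from other differences between these libraries. Most tested members had less Pol2S2P with dual staining, from all 5 families and from each of the larger loci. At H2bc18, an H2B gene on chromosome 3, dual staining gave densities of 1.92, 4.16 and 4.74 and single staining 12.7 and 11.9 (log2 fold change -1.78 ± 0.32, adjusted p = 1.38e-06, edgeR). At H3c10 the values were 3.97, 5.83 and 4.94 against 14.9 and 10.8 (-1.42 ± 0.25, adjusted p = 8.78e-07). All dual libraries lay below all single libraries at both genes.

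Of 62 members tested, 43 were lower in dual staining and 0 higher, from 23 window sets, with log2 fold changes from -1.78 to -0.46. Over 17251 genes 47.3% passed, 37.4% as lower and 9.98% as higher, and the medians were -0.87 over the members tested and -0.25 over all genes. TMM brought the median of all genes to 0.00, with 30 members lower and 0 higher against 16.1% lower and 18.2% higher over all genes. DESeq2 called 13 lower and 0 higher, against 6.27% and 9.88% of all genes, and at an unadjusted p under 0.05 the main test had 51 members in either direction. Without the first single library 26 members were lower, and without the second 40. Lower members made up 10 of 10 tested on chromosome 3, 5 of 5 in group B, 9 of 15 in group A and 16 of 29 in group C; by family they were 5 of 6 H1, 13 of 16 H2A, 9 of 16 H2B, 9 of 12 H3 and 7 of 12 H4 genes.

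H1f4, a linker histone gene of group C, had 3.79, 4.79 and 5.34 in dual and 12.7 and 11.9 in single staining (-1.41 ± 0.25, adjusted p = 1.78e-06, edgeR). H2ac12 in group B had 3.13, 4.44 and 5.27 against 11.2 and 13.3 (-1.51 ± 0.31, adjusted p = 2.01e-05), and its neighbour H2bc12 3.25, 3.96 and 4.74 against 11 and 11.3 (-1.49 ± 0.27). In all 3 genes single staining gave more than 2 times the density of the highest dual library. H1f1 had 2.17, 3.33 and 4.15 against 10.3 and 5.40 (-1.34 ± 0.32, adjusted p = 0.000253), and here the single libraries differed from each other; without the first of them its adjusted p was 0.225, and by DESeq2 0.0956. H4f16 and H4c14 were lower by the same test (-1.16 ± 0.22 and -1.28 ± 0.22). Ribosomal protein genes, a set outside the histones, were lower in dual staining at 77 of 78 tested, with a median of -0.95, near that of the histone members.

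CTCF stained with H3K4me3 was compared in the same way with CTCF stained alone in 10000 cells. Of 61 members 0 passed by edgeR (0.692% of all genes) and 0 by DESeq2 (0.0%), with 6 at an unadjusted p under 0.05, and the median was -0.15 against 0.02 over all genes. H4c3 read 9.93, 9.04 and 11.6 in dual and 12.6 and 8.83 in single staining, and H4f16 10.1, 8.70 and 11.2 against 13.8 and 11.1. The ranges overlapped at both genes.

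Cell number was compared within each target. For H3K4me3, 4 of 43 members tested were higher in 10000 than in 1000 cells and 0 lower, with 2.24% of 14417 genes called, 1.7% as higher and 0.541% as lower. H4c1 had 5.57, 5.33 and 6.36 against 0, 0.999 and 1.25 (12, 16 and 14 counts against 0, 2 and 2; log2 fold change 2.66 ± 0.64, adjusted p = 0.00816, edgeR). Its neighbour H3c1, in overlapping bins, had 5.57, 6.67 and 7.26 against 0.914, 2.00 and 1.87 (1.90 ± 0.52, adjusted p = 0.0248). The call at H4c1 was lost without the second library of 1000 cells (adjusted p = 0.0869), without the third of 10000 (0.0616) and by DESeq2 (0.349). DESeq2 called 0 members, against 0.132% of all genes, and TMM 2, against 1.77%. No member was called without the second library of 1000 cells or without the third of 10000.

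The other 2 calls were H2bu1-ps and H2aw over Trim17. H2bu1-ps had 48.3, 47.6 and 46.6 in 10000 cells against 30.5, 32.0 and 30.8 in 1000 (0.60 ± 0.17, adjusted p = 0.0344), and its call was lost by TMM (0.0823), by DESeq2 (0.653) and without any 1 of the 6 libraries. H4c2, an H4 gene next to these neighbours in group C, held 0 H3K4me3 counts in all 3 libraries of 1000 cells and 13, 9 and 7 in those of 10000, and was not tested because its counts were too low. In 1000 cells its Pol2S2P densities with dual staining were 5.53, 5.27 and 3.69, near the median of the members. H4c2 was singled out after its values were seen.

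No member was called between cell numbers for the other targets. For CTCF, 53 members were tested between 10000 and 1000 cells, with 2 at an unadjusted p under 0.05 and 0.0684% of all genes called (edgeR). For H3K27ac between 1000 and 100 cells, 55 were tested, with 10 at an unadjusted p under 0.05 and 0.0% of all genes called; the median was 0.30 against 0.02 over all genes. For Pol2S2P, 57 were tested, with 6 at an unadjusted p under 0.05 and 0.00625% called, and the median was 0.38 against 0.01. DESeq2 called 0 members in each, and 0.0057%, 0.0% and 0.00625% of all genes. The shares of all genes called are at an adjusted p, so they are no background for the counts at an unadjusted p.

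The chromosome 13 region around groups A to C (chr13:21599916-23900905) was also read bin by bin. It holds 53 members and 55 other genes, of which 36 are Vmn1r pheromone receptors, and of its 2299 bins 189 (8.221%) lie in member windows, while 128 were at 0 in all libraries. Member bins of group A had an H3K4me3 density of 4.62 ± 0.321 in 10000 cells and the bins between them 1.32 ± 0.367; in group C the values were 5.40 ± 0.295 and 0.965 ± 0.0803 (SD, n = 3). The Vmn1r receptors had a median of 0.111. Member bins held 31.01% of the region's H3K4me3 counts in 10000 cells, 21.41% of CTCF counts, 40.4% of H3K27ac and 37.92% of Pol2S2P counts in 1000 cells, and 55.01% of Pol2S2P counts with single staining.

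Bins of at least 5 times the genome mean showed which other features carry the targets here. Pol2S2P with dual staining had 56 such bins in 1000 cells, 50 of them in member windows, and with single staining 103, of which 85. For H3K27ac in 1000 cells it was 79 of 96. For H3K4me3 in 10000 cells, by contrast, 74 of 163 lay in member windows, and 72 of the 89 outside lay within 1 kb of a transfer RNA gene. For CTCF it was 16 of 67, and 39 of the 51 outside lay near a transfer RNA gene. The strongest bin for Pol2S2P with single staining (31.1 ± 1.30) lay at H1f4 and H2bc6, and for H3K27ac (16.1 ± 5.93) at H2ac10, whereas for CTCF in 10000 cells it lay at 2 transfer RNA genes (chr13:23400906-23401905, 40.3 ± 4.92). For H3K4me3 in 10000 cells a bin at Zfp322a, a zinc-finger gene (45.8 ± 15.1), and a bin at a transfer RNA gene (43.7 ± 3.44) did not differ beyond their SD, and in 1000 cells the highest bin lay at 2 transfer RNA genes (42.0 ± 8.30).

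Transfer RNA genes, which RNA polymerase III transcribes, number 79 in the region by the RefSeq table, and 164 bins (7.773% of those outside member windows) lie within 1 kb of one. These bins were singled out after their values had been seen, so they are described without a test. In 10000 cells they had more H3K4me3 (7.56 ± 0.440) and more CTCF (4.004 ± 0.0418) than the histone bins (5.19 ± 0.243 and 2.26 ± 0.0295; SD, n = 3). In 1000 cells they had less H3K27ac (2.01 ± 0.0977 against 4.67 ± 0.183) and less Pol2S2P (1.29 ± 0.0459 against 3.62 ± 0.133 with dual staining). In each of these pairs the libraries of the 2 kinds of bin did not overlap. The remaining 1946 bins lay between 0.466 and 0.4996 in the 4 dual groups named here.

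**Figure D4:**
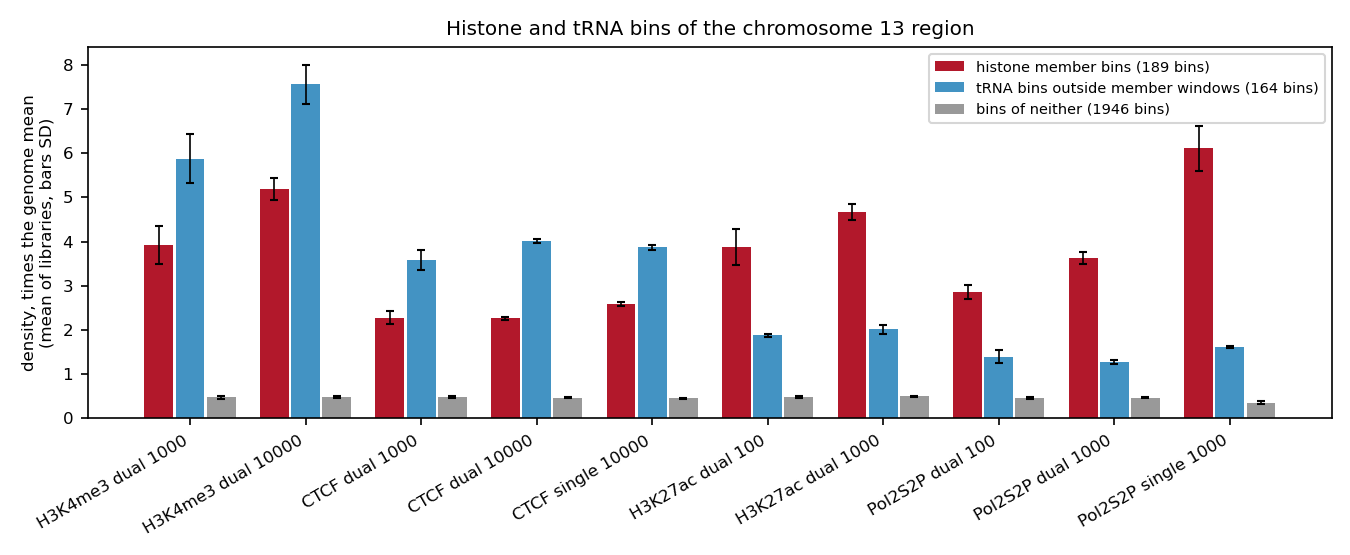
Density (times the genome mean; bars are means of 3 libraries in dual and 2 in single groups, error bars SD) in the chromosome 13 region for bins of histone windows, bins near a transfer RNA gene outside them and bins of neither, by target, staining and number of cells. Transfer RNA bins are higher than histone bins in H3K4me3 and CTCF and lower in H3K27ac and Pol2S2P.

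Tested singly in 10000 cells, 72 bins of the region had enough counts for H3K4me3 against CTCF, and 55 were higher in H3K4me3 and 5 lower, where 83.3% of 44023 bins passed, 53.9% as higher and 29.4% as lower. Of the 27 tested bins in member windows 22 were higher and 2 lower. A bin could be tested if either target alone had enough counts there. Member bins of the region averaged 5.19 in H3K4me3 and 2.26 in CTCF in 10000 cells. The filter thus partly sets this split and the folds below, which are a description. With TMM the split over the region was 38 higher and 14 lower, against 41.3% and 41.2% of all bins, and with DESeq2 14 and 14, against 28.6% and 40.0%. The largest differences in member windows were at H2ac10 and H3c8, with log2 fold changes up to 3.17 ± 0.42 (adjusted p = 4.13e-11, edgeR). The 2 lower bins lay at H4c11 (-0.79 ± 0.36) and between H1f6 and H4c3 (-1.14 ± 0.39).

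For H3K27ac against Pol2S2P in 1000 cells, 22 bins were tested, 21 of them in member windows, and 6 were higher in H3K27ac and 0 lower, against 65.5% of 18663 bins passing, 55.9% as higher and 9.59% as lower. The 6 bins lay at H2ac22 and H2bc22, H2ac10, the H2ac8 to H2bc8 group, H4c4, H2bc6 and H3c2, with log2 fold changes of 0.91 to 1.00. The direction turned with the scaling, since TMM gave 0 higher and 7 lower, against 10.3% and 19.1% of all bins, and DESeq2 0 and 6, against 3.73% and 15.2%. Without the second Pol2S2P library 11 bins were called. The share of higher bins was below that of all bins tested in the main fit, with TMM and with DESeq2.

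**Figure D5:**
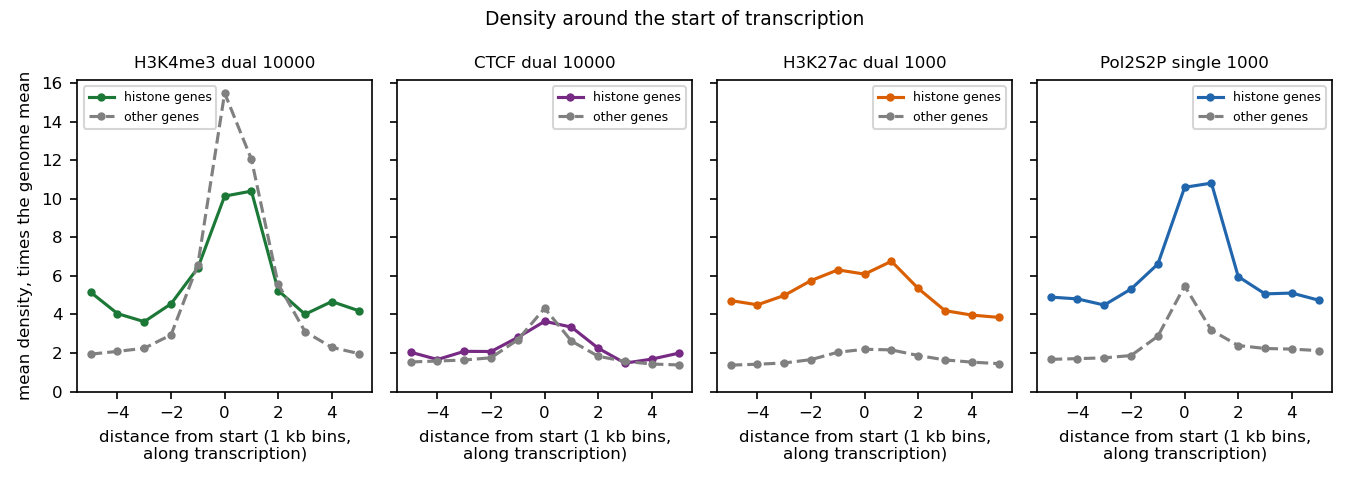
Mean density (times the genome mean) in 1 kb bins from 5 before to 5 after the start of transcription, for 61 histone genes (solid) and 14443 other genes (dashed) with 1 listed start, in H3K4me3 and CTCF in 10000 cells, H3K27ac in 1000 cells and Pol2S2P in 1000 cells with single staining. Histone genes lie above the others on either side of the start for H3K27ac and Pol2S2P, and below them at the start for H3K4me3; neighbouring histone genes lie within these windows.

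Around the start of transcription, the 61 members with 1 listed start had a lower H3K4me3 peak than other genes and higher levels of H3K27ac and Pol2S2P. In the bin of the start H3K4me3 in 10000 cells averaged 10.1 against 15.5 for 14443 other genes, and CTCF 3.65 against 4.32. H3K27ac in 1000 cells averaged 6.09 against 2.20, and Pol2S2P 4.60 against 2.13 with dual and 10.6 against 5.48 with single staining. At 5 bins before the start members still averaged 5.15 for H3K4me3, against 1.95. Neighbouring histone genes lie in these windows, and their part in that level was not tested. Ribosomal protein genes with 1 listed start (51 genes) had 46.0 for H3K4me3 and 7.14 for H3K27ac in that bin. These means were not tested.

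Other genes of histone biology were given the same windows. The 11 replacement histones had a median H3K4me3 density of 19.6 in 10000 cells, above the 6.84 of the members, with H2ax, the variant phosphorylated at DNA breaks, at 32.6 and Macroh2a1 at 1.27. Their medians for H3K27ac (3.68) and Pol2S2P (4.16) in 1000 cells were below those of the members (5.75 and 4.68), but in 100 cells their Pol2S2P median was higher (4.01 against 3.58). The 19 genes of histone transcription and mRNA processing had 5.57 for H3K4me3, 1.72 for H3K27ac and 2.52 for Pol2S2P; among them Cdk2 stood at 14.4, Slbp at 11.9, Npat at 3.86 and Pou2f1 at 2.13 in H3K4me3. The 12 histone chaperones, with Daxx at 18.9 and Atrx at 1.496, had 6.28, 2.31 and 3.63. These lists were set beside the members without a test.

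In H3K27ac against Pol2S2P at 1000 cells, where 10.4% of all genes were higher and 36.4% lower, 1 of 10 replacement histones tested was higher and 4 lower, near those shares. Of 19 transcription and processing genes 0 and 11, of 12 chaperones 0 and 9, and of 78 ribosomal protein genes 0 and 50. For H3K4me3 against CTCF in 10000 cells 10 of 11 replacement histones were higher and 1 lower, and all 78 ribosomal protein genes were higher, with a median of 2.64. The median window was 7 bins for replacement histones, 6 for ribosomal protein genes, 20 for the transcription and processing genes and 26 for the chaperones, against 4 for the members.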

How the data were processed

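Members and lists were chosen with earlier results of these data known. The authors deposited 1 table of read counts per 1 kb bin of GRCm38, covering 2728634 bins; reads were demultiplexed with bcl2fastq and mapped with HISAT2 2.1.0, and deepTools 3.3.1 was used, per the submitters' processing notes. Whether duplicates or multiply mapped reads were removed is not stated in the labels. Of 34 samples, 28 matched a column by name; 6 are not analysed here, and 4 columns matching no sample were not used.

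Kept were 2631630 bins on the autosomes and X, without 9 bins whose density exceeded 50 times the genome mean. The library size was the total count on them. Counts were summed over each gene's window and fitted over all genes, comparison by comparison, without TMM. The fits used edgeR 4.0.16 in R 4.3.3 (quasi-likelihood, Benjamini-Hochberg adjustment, threshold 0.05) after its filter on low counts. That filter asks for a minimum count, scaled to library size, in as many libraries as the smallest group holds, and for a total of at least 15. A gene or bin can thus enter a test only through the group where it is higher, and its fold is then partly selected. Between 719766 and 6653298 counts per library limit the precision. Alternatives were TMM, DESeq2 1.42.0, no filter (for bins, a minimum count of 5), gene spans without flanks, all bins in the library size, the replicate number as a block, and each library left out. The fits were checked on simulated counts. Tables and plots used Python 3.11.15 with numpy 2.4.6, pandas 2.3.3 and matplotlib 3.10.9.

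Named members are, per comparison, up to 5 called genes in each direction with the largest fold, without overlap, with at least 10 counts in each library of the higher group and 1 per window set; each family's highest and lowest gene in H3K4me3; the testis genes; and those off chromosome 13. Genes outside it were chosen after their values were seen: H4c3 in 10000 cells, H4c17, H2bc23, H4bc24, H4c2, H3c1, H4c8 and H2bc12. From the other histone lists come the highest and lowest genes, with Slbp and Npat added in the same way.

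Same-numbered dual libraries of a pair of targets carry, in the sample labels, 1 staining, cell number and replicate number, and so come from the same cells; the numbers pair them. Their deviations from group means correlated at 0.105 to 0.115 over genes for H3K27ac and Pol2S2P and at 0.0243 to 0.0774 for H3K4me3 and CTCF. Across cell numbers and stainings libraries share only a number.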

Additional observations from a re-analysis of the deposited data

How the results depend on the processing

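Single results are the 28 log2 fold changes of named members in their comparisons. Of 293 alternative values for them, 255 stayed on the same side of the threshold, 38 kept their direction but missed it and 0 reversed. Counts of calls are not part of this tally. Among those, the chromosome 13 bins called for H3K27ac against Pol2S2P turned from higher to lower with TMM and with DESeq2, as given above. With gene spans alone, which hold fewer counts, members called numbered 34 for H3K4me3 against CTCF in 10000 cells and 10 in 1000, 7 for H3K27ac against Pol2S2P in 1000 cells and 1 in 100, and 2 for H3K4me3 in 10000 against 1000 cells. Densities were then 6.87 for H3K4me3 and 2.44 for CTCF in 10000 cells, 2.86 for CTCF alone, 4.47 for H3K27ac in 1000 cells, and 2.68 and 3.50 for Pol2S2P in 100 and 1000 cells. DESeq2 called 10 members for H3K4me3 against CTCF in 1000 cells (26 by edgeR), 0 for H3K4me3 in 10000 against 1000 cells, 13 for Pol2S2P in dual against single staining and 28 chromosome 13 bins for H3K4me3 against CTCF. A minimum count of 5 gave 102 such bins, with more bins tested. TMM called 9 members for H3K27ac against Pol2S2P in 100 cells and 2 for H3K4me3 in 10000 against 1000 cells. For DESeq2 and TMM the cause was not tested. For gene spans and the minimum count of 5, shares over all genes or bins are not given, so those counts cannot be read against a background.

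Leaving out each library in turn gave 46 to 52 members for H3K4me3 against CTCF in 10000 cells and 24 to 27 in 1000, 13 to 22 for H3K27ac against Pol2S2P in 1000 cells and 2 to 6 in 100, 0 to 4 for H3K4me3 in 10000 against 1000 cells, and 26 to 44 for Pol2S2P in dual against single staining. Chromosome 13 bins ran from 47 to 84 for H3K4me3 against CTCF and 4 to 11 for H3K27ac against Pol2S2P. Where 1 single-staining library remained, it was assumed to vary like the dual group. Shares over all genes or bins are not given for fits with a library left out, here or above, so these counts show only how calls moved.

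With the replicate number as a block, 26 members were called for H3K27ac against Pol2S2P in 1000 cells (23 without) and 4 in 100 (4 without). For H3K4me3 against CTCF, likewise paired by their cells, it gave 51 members in 10000 cells (52 without) and 26 in 1000 (26 without). Libraries of Pol2S2P in dual and single staining share only a number, and there it gave 39. No count of calls moved by over 1.5 times with the block. Shares over all genes with the block are given above for H3K27ac against Pol2S2P in 1000 cells only. Low counts limit H3K4me3 in 1000 cells and both targets in 100 cells, where fewer members could be tested.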
